A study of Sus scrofa with 2 samples.

Results

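The cells described here are stromal cells of pig back muscle that carry transcripts of PI16 or CCL26. PI16 encodes a secreted or membrane-anchored peptidase inhibitor that marks fibroblasts around blood vessels in mouse and human tissues. CCL26 encodes eotaxin-3, a chemokine that in human attracts eosinophils through the receptor CCR3. Barcodes of single-cell libraries were taken as members when they had at least 500 genes detected and at least 50 unique molecular identifiers (UMIs) per 10000 of the fibroblast matrix genes DCN, LUM and MFAP5. They also had fewer than 3 UMIs of the tendon gene TNMD, fewer than 3 of the matrix genes THBS4, KERA and ISM1 together, and fewer than 3 of the nerve sheath genes CLDN1, ITGB4 and ANGPTL7 together. Finally, PI16 and CCL26 had to reach at least 3 UMIs together. There were 2536 members, 2126 in the library of Guangdong small-eared spotted pigs, called GDSS, and 410 in that of Yorkshire pigs, of 11016 barcodes that passed the stromal gate, 25851 barcodes with at least 500 genes and 26981 barcodes in all. Members were thus chosen by the measured UMIs of 12 genes, whose levels are given only as a description. All other genes were counted in the same cells, so their differences are also descriptions and carry no test.

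Skeletal muscle holds fibro-adipogenic stromal cells that lie between fibres and around vessels, make the matrix, and can become adipocytes that store fat inside the muscle. In mouse fat and skin, cells with Pi16 and Dpp4 sit in the outer coat of vessels and in fibrous sheaths. They are described there as an early progenitor state that precedes cells committed to adipocytes, which carry Icam1 and F3.

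The libraries were made from longissimus dorsi, the long back muscle, with 1 library per breed, from GDSS and from Yorkshire pigs. The labels say that the breeds differ in the fat held inside the muscle. The labels call the cells intramuscular vascular stem cells, taken from piglets after red cell lysis and removal of dead cells on magnetic beads, and give 1 g of muscle for each animal. The titles carry "P0", whose meaning was not given in the sources used here, nor was the number of piglets in each library. With 1 library per breed, breed, animal, preparation and library cannot be told apart, no difference has a replicate check, and the intervals below are exact 95% intervals for counting error only.

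The GDSS library held 42093851 UMIs in 12286 barcodes and the Yorkshire library 54300953 UMIs in 14695 barcodes. Members summed to 8395021 UMIs in GDSS and 1840027 in Yorkshire, with median depths of 3529 and 4188 UMIs. The other gated barcodes had median depths of 2928 and 3895 UMIs. Members with a doublet score of at least 0.3 numbered 7 in GDSS and 11 in Yorkshire. Median mitochondrial shares were 3.83% and 3.72% in members, against 3.96% and 3.73% in the other gated barcodes. The libraries shared 47 barcode sequences, and none of these was a member in both.

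Members made up 24.7% of the gated stromal barcodes in GDSS (2126 of 8596, Clopper-Pearson interval 23.8% to 25.7%) and 16.9% in Yorkshire (410 of 2420, 15.5% to 18.5%). Among gated barcodes past the 3 exclusions the shares were 29.6% in GDSS (28.5% to 30.6%) and 25.7% in Yorkshire (23.5% to 27.9%). Of all barcodes with at least 500 genes they were 18.4% and 2.86%. The distance between the libraries thus depended on the denominator, and the intervals of the libraries did not overlap with any of the 3 denominators. The exclusions took a larger share of Yorkshire barcodes: 740 of 2420 Yorkshire gated barcodes, against 1258 of 8596 in GDSS, had 3 or more UMIs of THBS4, KERA and ISM1.

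**Figure D1:**
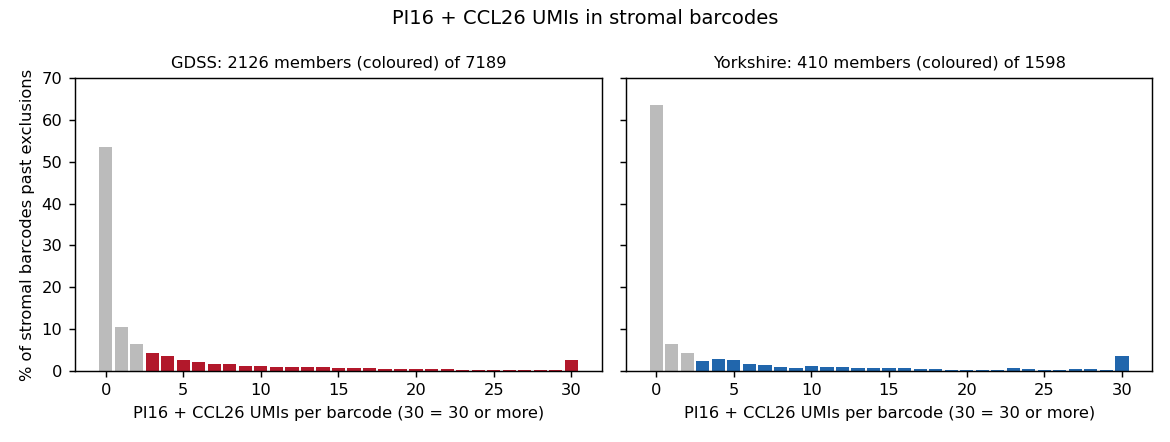
Share of the gated stromal barcodes past the 3 exclusions (y axis, percent) by their summed PI16 and CCL26 UMIs (x axis, the last bar holding 30 or more), in GDSS (left, 7189 barcodes) and Yorkshire (right, 1598 barcodes). Coloured bars are members (3 or more UMIs) and grey bars are not. The largest bar in each library is at 0 UMIs (3846 GDSS and 1017 Yorkshire barcodes), and the members form a long tail with no gap at the threshold.

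Most of the UMIs that chose the members came from CCL26. The sum over members was 24912 CCL26 and 2498 PI16 UMIs in GDSS, and 6045 CCL26 and 704 PI16 UMIs in Yorkshire, so that CCL26 gave 90.9% and 89.6% of them. Both transcripts were seen in 587 GDSS members (27.6%) and 71 Yorkshire members (17.3%). CCL26 alone was seen in 1431 GDSS members (67.3%) and 293 Yorkshire members (71.5%), and PI16 alone in 108 (5.08%) and 46 (11.2%). The median member had 8 PI16 and CCL26 UMIs in GDSS and 10 in Yorkshire, the highest member 176 and 205, and the top 10% of members held 36.9% and 38.3% of these UMIs. In each library the members are therefore mainly barcodes with CCL26, of which a minority also had a PI16 UMI.

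A low level of both transcripts was also found outside the stroma. At least 3 PI16 and CCL26 UMIs were carried by 4 of 301 satellite cell barcodes in GDSS (1.33%) and 50 of 3014 in Yorkshire (1.66%). The same held for 17 of 271 endothelial barcodes in GDSS (6.27%) and 79 of 1646 in Yorkshire (4.80%). A CCL26 UMI was seen in 94.9% of GDSS members and 88.8% of Yorkshire members, against 19.2% and 9.50% of the other gated barcodes and 12.3% and 7.13% of satellite cell barcodes. The median depths of those satellite cell barcodes were 2661 UMIs in GDSS and 3244 in Yorkshire, below those of members, and the share that free RNA had in these values was not tested.

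The threshold cut a continuous range. Just outside it, 455 GDSS and 68 Yorkshire barcodes had 2 UMIs, and just inside it 314 and 38 had 3. FBLN2 stood at 367 CPM (UMIs of the gene per 1000000 UMIs summed over the barcodes) in the GDSS barcodes just inside and 296 CPM in those just outside, and at 350 and 411 CPM in the Yorkshire ones. EFEMP1 stood at 322 CPM inside and 250 CPM outside in GDSS, and at 561 and 339 CPM in Yorkshire. DPP4 stood at 10.4 and 9.44 CPM in GDSS and at 39.6 and 19.9 CPM in Yorkshire. Members with 12 or more UMIs had FBLN2 at 553 CPM and barcodes with none at 182 CPM in GDSS, and at 464 and 225 CPM in Yorkshire. For EFEMP1 these levels were 397 and 183 CPM in GDSS and 383 and 252 CPM in Yorkshire, where the 38 barcodes just inside the line were higher than either.

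Of the 7 markers given for these cells, MFAP5 was read by the gate and PI16 and CCL26 by the rule. The other 4 were higher in members than in the other gated barcodes of both libraries. FBLN2, which encodes the matrix protein fibulin-2, stood at 471 CPM in GDSS members and 183 CPM in the other gated barcodes, which made the ratio 2.57 (2.46 to 2.69). In Yorkshire it stood at 429.9 and 151 CPM, with a ratio of 2.85 (2.61 to 3.11). EFEMP1, which encodes fibulin-3, was at 375 CPM in members and 165 CPM in the others in GDSS, and at 386 and 141 CPM in Yorkshire. DKK2, a secreted regulator of Wnt receptors, was at 172 and 84.9 CPM in GDSS and at 330.4 and 102 CPM in Yorkshire. PROCR, the endothelial receptor of protein C, was at 58.8 and 38.2 CPM in GDSS and at 99.5 and 20.5 CPM in Yorkshire, so that the member ratio was 1.54 (1.38 to 1.72) in GDSS and 4.85 (3.93 to 5.98) in Yorkshire. The markers that the rule left unread therefore all lay on the higher side in both libraries against all other gated barcodes. PROCR was the most unequal between the libraries, with 47.0% of its Yorkshire member UMIs in 10 members. Against only the gated barcodes past the 3 exclusions, all 4 passed 1.5-fold in GDSS. In Yorkshire 3 did, and EFEMP1 stayed within 1.5-fold.

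No member had to carry all of these markers. After each barcode was thinned to 1500 UMIs, 34.1% of 2039 GDSS members and 24.4% of 397 Yorkshire members had no UMI of EFEMP1, PROCR, DKK2 or FBLN2, against 60.5% of 5956 and 65.4% of 1913 other gated barcodes. Before thinning these shares were 18.3% and 10.2% in members and 44.6% and 45.6% in the others. Detection of PROCR was rare even in members, at 11.1% in GDSS and 18.0% in Yorkshire, against 7.01% and 4.86% of endothelial barcodes.

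**Figure D2:**
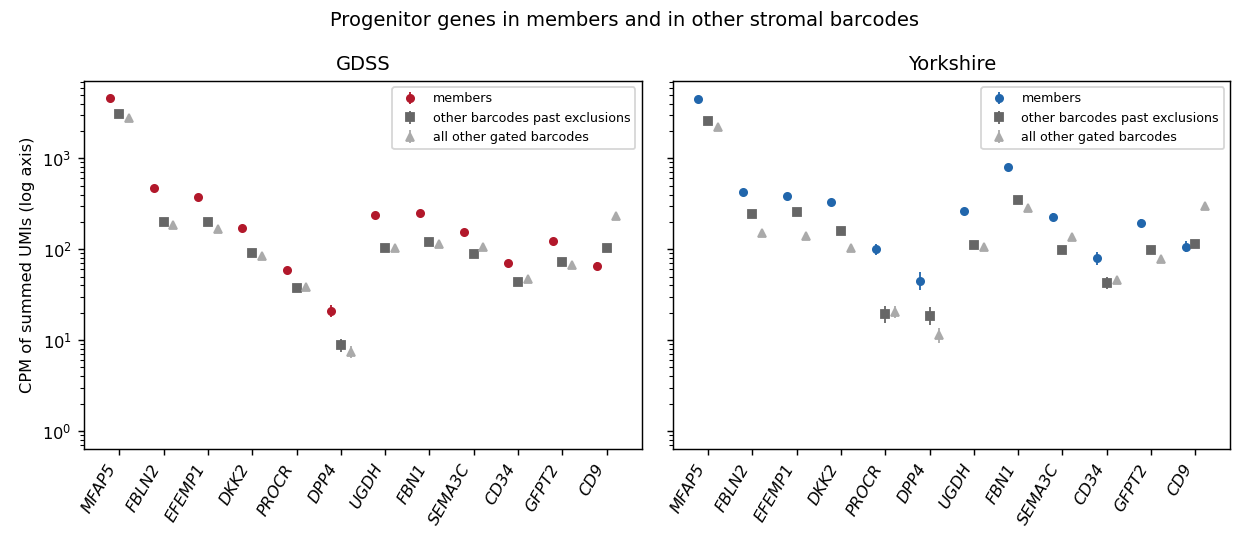
Level of 12 genes (y axis, CPM of summed UMIs, log axis) in members, in the other gated barcodes past the 3 exclusions and in all other gated barcodes, in GDSS (left) and Yorkshire (right). Points are sums over barcodes of 1 library and bars are exact Poisson 95% intervals. Members lie above both other sets for the first 11 genes, and below all other gated barcodes for CD9.

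Across the transcriptome, members differed from the other gated barcodes by at least 1.5-fold at few genes. Of 9625 genes that reached 100 UMIs in the sums compared in GDSS, 248 were higher in members (2.58%) and 455 lower (4.73%). Of 7560 genes in Yorkshire, 399 were higher (5.28%) and 569 lower (7.53%). In both libraries at once, 100 of 7516 genes were higher (1.33%), 199 were lower (2.65%) and 4 went opposite ways (0.0532%). COMP, which encodes a cartilage and tendon matrix protein, stood at 1.79 CPM in GDSS members and 255 CPM in the other gated barcodes, and at 2.17 and 753 CPM in Yorkshire. COL2A1, COL11A1 and COL11A2, all cartilage collagens, and FMOD, which encodes fibromodulin, were also among the 15 lowest. Of 8 tendon markers, the exclusions read TNMD, THBS4, KERA and ISM1, so the summed level of the 8 was partly set by the rule. It was 169 CPM in GDSS members and 221 CPM in the barcodes past the exclusions, against 1587 CPM in all other gated barcodes. In Yorkshire these sums were 136, 196 and 2614 CPM.

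The comparison was therefore repeated against the gated barcodes that passed the same 3 exclusions but had fewer than 3 PI16 and CCL26 UMIs, 5063 in GDSS and 1188 in Yorkshire. Of 8980 genes in GDSS, 216 were higher in members (2.41%) and 250 lower (2.78%), and of 5711 genes in Yorkshire 219 were higher (3.83%) and 227 lower (3.97%). In both libraries, 67 of 5708 genes were higher (1.17%), 45 lower (0.788%) and 6 opposite (0.105%). These comparison cells had median depths of 2660 and 3053 UMIs, below those of members. The shares over all genes given here are the background for each count of list genes below against these cells. The lists were chosen with earlier results of these data known.

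A few matrix genes were higher in members, while most elastic fibre and collagen genes measured were within 1.5-fold. UGDH, the enzyme that makes UDP-glucuronate for hyaluronan and proteoglycans, was at 239 CPM in GDSS members and 103 CPM in the others past the exclusions, a ratio of 2.33 (2.18 to 2.49). In Yorkshire it was at 262 and 112 CPM, with a ratio of 2.33 (2.05 to 2.65). FBN1, which encodes the microfibril protein fibrillin-1, was at 248 and 119 CPM in GDSS and at 813 and 348 CPM in Yorkshire, with ratios of 2.08 (1.95 to 2.21) and 2.33 (2.17 to 2.51). Of 17 measured elastic fibre and microfibril genes, 3 were higher, 1 lower and 13 within 1.5-fold in each library. FBN1 and FBLN2 were higher in both, and EMILIN1, a glycoprotein of elastic fibres, was lower in both. The hyaluronan list had UGDH and VCAN, the hyaluronan-binding proteoglycan versican, higher in both libraries. Among collagens, COL6A6 was higher in both, at 56.9 and 27.7 CPM in GDSS and at 39.1 and 24.7 CPM in Yorkshire, while COL18A1 was lower in both. Of 18 measured collagens, 2 were higher and 2 lower in GDSS members, and 1 was higher and 7 lower in Yorkshire members. The 7 included COL15A1, at 233 CPM in Yorkshire members and 467 CPM in the others, COL4A1 and COL4A2 of basement membranes, and COL6A1 and COL6A2 of the microfibrillar collagen VI.

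Surface and enzyme genes known from mouse interstitial progenitors were also higher. DPP4, a membrane dipeptidase, was at 20.7 CPM in GDSS members and 8.77 CPM in the others past the exclusions, a ratio of 2.36 (1.87 to 2.98), and at 45.1 and 18.5 CPM in Yorkshire, with a ratio of 2.44 (1.77 to 3.37). SEMA3C, a secreted semaphorin, was at 153 and 88.6 CPM in GDSS and at 226 and 97.8 CPM in Yorkshire. CD34, a sialomucin of stromal and endothelial cells, was at 70.6 and 43.1 CPM in GDSS and at 79.9 and 42.8 CPM in Yorkshire. NT5E, the ecto-nucleotidase CD73, was at 97.3 and 56.0 CPM in GDSS and at 95.7 and 53.1 CPM in Yorkshire. Of the 24 genes listed for this mouse progenitor state, 12 of 19 measured in GDSS were higher and none lower, with a median log2 ratio of 0.71, where the median of all genes was -0.02. In Yorkshire 10 of 18 were higher and none lower, with a median of 0.72 against -0.01. FBLN2, EFEMP1, DKK2 and PROCR are on this list as well, so the count is not separate from the markers above. EFEMP1 was not among the higher genes in Yorkshire.

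The list of genes for committed preadipocytes had the other sign. Past the exclusions, 6 of 15 measured genes were lower in GDSS members and none higher, with a median of -0.45, and 8 of 13 were lower in Yorkshire members and none higher, with a median of -0.69. VCAM1, an adhesion molecule, was at 263 CPM in GDSS members and 421 CPM in the others, and at 347 and 597 CPM in Yorkshire. F3, the coagulation starter tissue factor, was at 118 and 201 CPM in GDSS and at 51.1 and 85.8 CPM in Yorkshire. ICAM1, named with F3 above for committed cells, was lower in GDSS members but within 1.5-fold in Yorkshire. APOE, a lipid carrier, was at 1028 and 1626 CPM in GDSS and at 821 and 1404 CPM in Yorkshire. CXCL14, a chemokine, was at 144 and 264 CPM in GDSS and at 112 and 277 CPM in Yorkshire, and MME, a membrane endopeptidase, was at 42.05 and 82.0 CPM in GDSS and at 51.1 and 97.6 CPM in Yorkshire. LPL, the lipoprotein lipase that adipocytes use to take up fatty acids, did not follow them. It was at 583 CPM in GDSS members and 445 CPM in the others and at 1023 and 835 CPM in Yorkshire, ratios of 1.31 and 1.22. Against all other gated barcodes this list did not keep that sign, with LPL higher and MME lower of 15 genes in GDSS, and LPL, FMO2, C7 and GPC3 higher and CXCL14 lower of 14 in Yorkshire (4 higher and 1 lower).

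Adipogenic transcription factors showed no such split. None of 14 measured factors in GDSS and none of 9 in Yorkshire passed 1.5-fold against the barcodes past the exclusions, with list medians of 0.14 and -0.08. PPARG, the master regulator of adipocyte formation, was at 6.79 CPM in GDSS members and 8.51 CPM in the others, a ratio of 0.80 (0.57 to 1.10), and was under 100 UMIs in Yorkshire. KLF4 of the same list was at 774 and 614 CPM in GDSS and at 835 and 574 CPM in Yorkshire. At this depth a difference in PPARG smaller than this interval was not detectable.

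Chemokine and cytokine genes lay on both sides. Of that list, 4 of 13 measured genes were higher and 2 lower in GDSS members, and 4 of 11 were higher and 2 lower in Yorkshire members, with ACKR4 and CSF1 higher and CXCL12 and CXCL14 lower in both. ACKR3, an atypical receptor that takes up CXCL12, passed 1.5-fold in GDSS, at 239.8 CPM in members and 152 CPM in the others past the exclusions, but not in Yorkshire, at 297 and 227 CPM. ACKR2, an atypical receptor that removes inflammatory CC chemokines, was at 26.8 CPM in GDSS members and 9.10 CPM in the others past the exclusions, a ratio of 2.95 (2.37 to 3.67). In Yorkshire it was at 37.5 and 13.5 CPM, with a ratio of 2.79 (1.93 to 4.04). ACKR4, which removes the homeostatic chemokines CCL19, CCL21 and CCL25, was at 104 and 40.6 CPM in GDSS and at 154 and 68.5 CPM in Yorkshire. PTGS1, the cyclooxygenase COX-1, was at 89.2 and 43.7 CPM in GDSS and at 93.5 and 49.5 CPM in Yorkshire, and PTGES, a prostaglandin E synthase, was at 24.9 and 12.3 CPM and at 31.5 and 12.5 CPM. CSF1, a growth factor for macrophages, was at 113 and 59.2 CPM in GDSS and at 91.8 and 57.7 CPM in Yorkshire. The chemokine CXCL12, which retains blood progenitors in marrow, lay on the low side. It was at 207 CPM in GDSS members and 375 CPM in the others and at 147 and 402 CPM in Yorkshire, as CXCL14 did above.

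Secreted regulators of BMP and Wnt signals made a smaller set. CHRDL1, a BMP antagonist, was at 45.6 and 21.9 CPM in GDSS and at 98.4 and 49.25 CPM in Yorkshire. SFRP4, a secreted Wnt modulator, was at 27.8 and 14.2 CPM in GDSS and at 99.5 and 29.8 CPM in Yorkshire, but 10 members held 56.2% of its member UMIs in GDSS and 85.2% in Yorkshire. Against all other gated barcodes SFRP4 was not higher in members, at 27.8 and 42.5 CPM in GDSS and at 99.5 and 112 CPM in Yorkshire. SFRP2, a related gene, passed 1.5-fold downward in Yorkshire, at 61.4 and 131 CPM, but not in GDSS, at 87.7 and 124 CPM. Of the Wnt list, 3 of 9 genes were higher and none lower in GDSS, and 2 of 6 higher and 1 lower in Yorkshire. ADAMTS5, an aggrecan- and versican-cleaving protease, was higher in both libraries, at 205 and 118 CPM in GDSS and at 497 and 267 CPM in Yorkshire, as was TIMP3, a protease inhibitor, at 202 and 109 CPM and at 300.5 and 171 CPM. The actin-binding proteins ABLIM1 and DBN1 and the membrane receptor PAQR9 were also among the 15 highest ranked genes. ABLIM1 was at 163 and 74.98 CPM in GDSS and at 229 and 82.6 CPM in Yorkshire, and PAQR9 at 164 and 63.6 CPM and at 149 and 67.5 CPM.

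On the low side against the barcodes past the exclusions, ACTA2, smooth muscle actin, was at 15.5 CPM in GDSS members and 33.8 CPM in the others, and at 26.6 and 99.5 CPM in Yorkshire, and MYL9 and TPM2, which encode a myosin light chain and a tropomyosin, were also among the 15 lowest. ACTA2 was the 1 mural marker past 1.5-fold, of 5 measured in GDSS and 2 in Yorkshire. Of GDSS members, 10 held 77.7% of their ACTA2 UMIs. FCN2, which encodes the complement lectin ficolin-2, was at 68.7 and 191 CPM in GDSS and at 14.7 and 54.3 CPM in Yorkshire. CLU, which encodes clusterin, was at 228 and 456 CPM in GDSS and at 117 and 471 CPM in Yorkshire. The tetraspanin gene CD9 depended on the comparison set, at 65.8 CPM in GDSS members against 229 CPM in all other gated barcodes and 104.5 CPM in those past the exclusions, and at 107 CPM in Yorkshire members against 302 and 113 CPM.

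Signalling lists outside the progenitor and preadipocyte groups had few genes past 1.5-fold against the barcodes past the exclusions. Of the TGF-beta and BMP list, 2 of 19 genes were higher and 1 lower in GDSS, and 3 of 16 were higher and none lower in Yorkshire. CHRDL1 was higher in both libraries, FST, which encodes the activin-binding protein follistatin, in GDSS, and FSTL1 and ID2 in Yorkshire, while INHBA, which encodes an activin chain, was lower in GDSS. No gene of the annexin and S100 list passed 1.5-fold in GDSS, and in Yorkshire ANXA2 alone did. Of 17 measured stromal transcription factors none passed in GDSS, and of 15 in Yorkshire NFATC2 passed downward. PDGFRA, the receptor that marks fibro-adipogenic cells, was at 219 CPM in GDSS members and 175 CPM in the others past the exclusions, and at 248 and 207 CPM in Yorkshire, within 1.5-fold in both. AGT, the precursor of angiotensin, was at 601 and 313 CPM in GDSS and at 572 and 404 CPM in Yorkshire, and against all other gated barcodes it was at 601 and 269.6 CPM and at 572 and 235 CPM.

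Matrix proteases and interferon genes gave a mixed picture. Of the protease list, 4 of 17 genes were higher and 1 lower in GDSS, and 6 of 13 higher and none lower in Yorkshire, with MMP16, TIMP3, ADAMTS5 and ADAMTSL4 higher in both. ADAMTS1, a protease of the same family, was at 133 and 97.0 CPM in GDSS and at 453 and 227 CPM in Yorkshire. Against all other gated barcodes, 4 of 6 interferon-induced genes were higher in Yorkshire members and none of 7 in GDSS members. ISG15, a ubiquitin-like protein, was at 79.5 CPM in GDSS members and 86.3 CPM in all other gated barcodes, and at 100.5 and 48.6 CPM in Yorkshire. Past the exclusions ISG15 was the 1 interferon gene higher in Yorkshire, with 60.5 CPM in the others. The difference between the libraries was not tested.

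**Figure D3:**
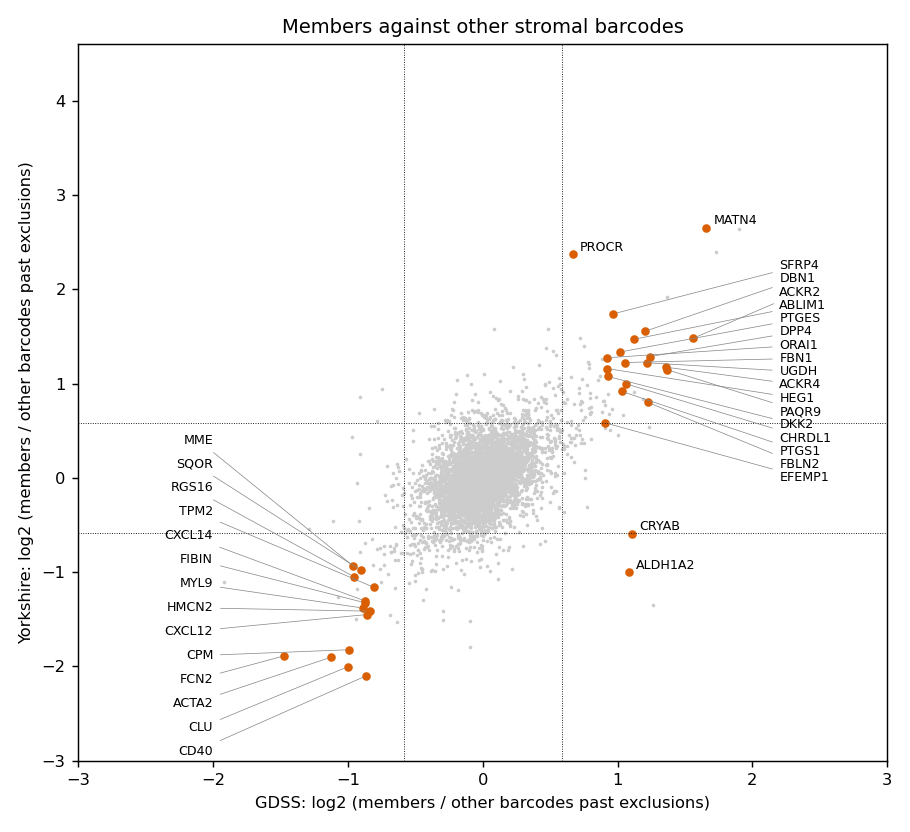
Log2 ratio of members over the other gated barcodes past the 3 exclusions in GDSS (x axis) and Yorkshire (y axis) for the genes measured in both, without those the rule reads. Orange points are the genes named by rank, further markers, and MATN4, CRYAB and ALDH1A2, which were picked after their values were seen. Dotted lines mark 1.5-fold. Most genes lie within 1.5-fold in both libraries, and 67 genes lie past it upward in both.

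Members were also set against the barcodes past the exclusions that had at least 3 UMIs of MME and FMO2 together, 289 barcodes in GDSS and 165 in Yorkshire. Against it, 554 of 6666 genes were higher in GDSS members (8.31%) and 440 lower (6.6%), and 247 of 3013 were higher in Yorkshire members (8.2%) and 162 lower (5.38%). Of 3010 genes measured in both, 97 were higher in members of both libraries (3.22%), 51 were lower in both (1.69%) and none went opposite ways. UGDH was at 239 CPM in GDSS members and 69.5 CPM in that group, and at 262 and 97.6 CPM in Yorkshire. VCAM1 was at 263 CPM in GDSS members and 564.5 CPM in that group, and at 347 and 803 CPM in Yorkshire. COL15A1, a basement membrane collagen, was at 530.2 and 914 CPM in GDSS and at 233 and 561 CPM in Yorkshire. EFEMP1 separated the groups less, with a member ratio of 1.61 (1.40 to 1.85) in GDSS and 1.18 (1.00 to 1.39) in Yorkshire, and LPL was about level, with ratios of 1.15 and 0.98.

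Members were not uniform, and the presence of a PI16 UMI divided them. PI16 was detected in 695 GDSS members and 117 Yorkshire members. Of 6336 genes in GDSS, 252 were at least 1.5-fold higher in members with a PI16 UMI than in members without (3.98%) and 162 lower (2.56%), and of 2386 genes in Yorkshire 225 were higher (9.43%) and 92 lower (3.86%). In both libraries, 67 of 2385 genes were higher (2.81%) and 18 lower (0.755%). Members with PI16 were deeper: the median was 4384 UMIs for PI16 alone, 4275 for both genes and 3221 for CCL26 alone in GDSS, and 4670, 5311 and 3822 UMIs in Yorkshire. The part of depth in these differences was not tested. CCL26 itself was lower with PI16, at 2472 and 3279 CPM in GDSS and at 2199 and 3853 CPM in Yorkshire. Members without PI16 had to reach the rule's minimum with CCL26 alone, and the part of the rule in this difference was not tested.

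Many genes of the mouse progenitor list were higher on the PI16 side. The genes given first here were ranked by this same split, and FBN1, ACKR4 and PI15 are not on that list. PROCR was at 99.3 CPM in GDSS members with a PI16 UMI and 33.4 CPM in those without, a ratio of 2.97 (2.46 to 3.60), and at 166 and 64.5 CPM in Yorkshire, with a ratio of 2.58 (1.90 to 3.50). FBN1 was at 380 and 165 CPM in GDSS and at 1438 and 486 CPM in Yorkshire. CD34 was at 110.1 and 45.8 CPM in GDSS and at 127 and 55.4 CPM in Yorkshire, and SEMA3C at 226 and 108 CPM and at 402 and 134 CPM. ACKR4 was at 165 and 66.2 CPM in GDSS and at 263 and 97.6 CPM in Yorkshire. PI15, a gene of the same family as PI16, was at 120.0 and 43.3 CPM in GDSS and at 163 and 67.0 CPM in Yorkshire. Of the mouse progenitor list, 10 of 18 genes were higher with PI16 in GDSS and 10 of 16 in Yorkshire, and none was lower in either. The others stayed within 1.5-fold, such as DPT, with ratios of 1.15 in GDSS and 0.88 in Yorkshire.

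Matrix genes on the PI16 side included MATN4, which encodes matrilin-4, at 28.4 and 4.85 CPM in GDSS and at 155 and 31.4 CPM in Yorkshire. ECM1, an extracellular matrix glycoprotein, was at 531 and 222 CPM in GDSS and at 665 and 161 CPM in Yorkshire. The serine protease HTRA3 was at 226 and 112 CPM in GDSS and at 317 and 117 CPM in Yorkshire. EFEMP1 moved least of the markers, at 441 and 333 CPM in GDSS and at 436 and 360 CPM in Yorkshire. DKK2 passed 1.5-fold in GDSS, at 237 and 130 CPM, but not in Yorkshire, at 387 and 301 CPM.

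The preadipocyte list lay on the other side. With a PI16 UMI, 8 of 13 measured genes were lower in GDSS and 5 of 11 in Yorkshire, and none was higher, with list medians of -0.65 and -0.58 against 0.02 and 0.09 for all genes. VCAM1 was at 154 CPM in GDSS members with PI16 and 332 CPM in those without, and at 157 and 446 CPM in Yorkshire. APOE was at 635 and 1275 CPM in GDSS and at 325 and 1080.4 CPM in Yorkshire. The growth factor PTN was at 396 and 634 CPM in GDSS and at 762 and 1356 CPM in Yorkshire. FMO2, a flavin monooxygenase, was at 66.9 and 112 CPM in GDSS and at 55.4 and 188 CPM in Yorkshire. The same direction was thus seen for VCAM1 and APOE within the members and between members and the other barcodes past the exclusions. It was not seen for CXCL14, which was not lower with PI16, at 148 and 141.5 CPM in GDSS and at 139 and 97.6 CPM in Yorkshire. Both comparisons read PI16 UMIs, so they are not independent of each other.

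**Figure D4:**
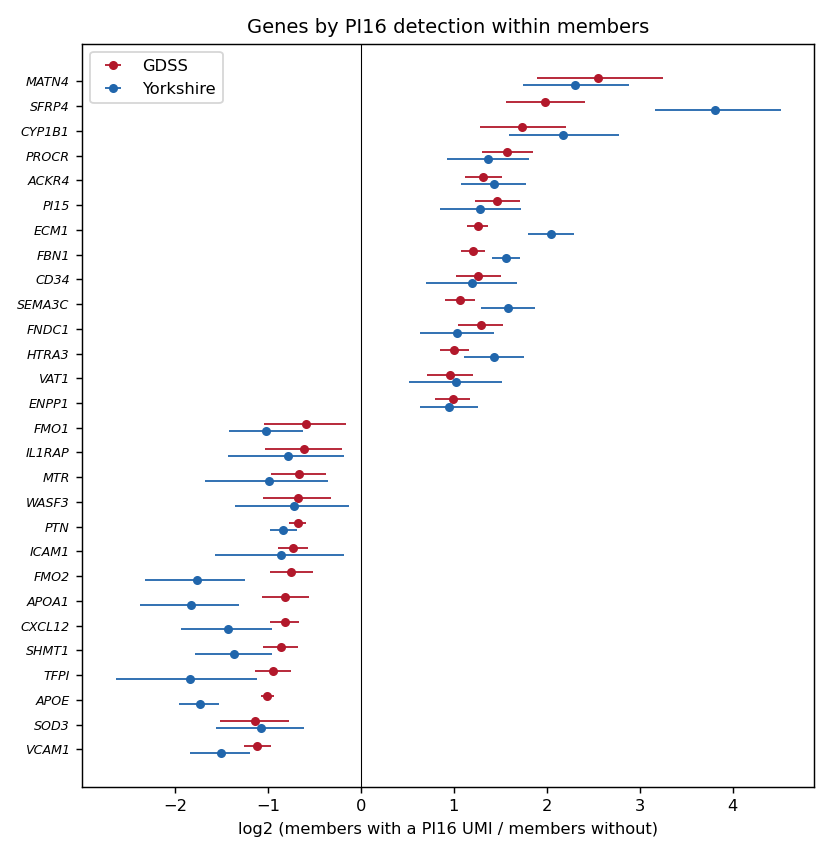
Log2 ratio of members with a PI16 UMI over members without (x axis) for 14 of the 15 highest and 14 of the 15 lowest ranked genes (y axis), in GDSS (red) and Yorkshire (blue), with exact 95% intervals for counting error. All intervals of the upper 14 genes lie right of 0 and all of the lower 14 left of 0 in both libraries, which the ranking by both libraries favours.

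Splitting the members of each library into 3 nearly equal sets by their rate of PI16 and CCL26 UMIs showed orders that differed between the libraries. From the low to the high set, UGDH was at 201, 227 and 303 CPM in GDSS and at 322, 243 and 207 CPM in Yorkshire. FBN1 was at 216, 245.3 and 292.5 CPM in GDSS and at 878, 918 and 623 CPM in Yorkshire. FBLN2 was at 409.8, 477 and 546 CPM in GDSS and at 419, 441 and 432 CPM in Yorkshire. CD9 was lowest in the high set of both, at 86.2, 60.5 and 44.6 CPM in GDSS and at 130, 128 and 57.1 CPM in Yorkshire. The adhesion molecule ICAM1 was at 210.1, 189 and 155 CPM in GDSS and at 53.3, 58.1 and 64.3 CPM in Yorkshire.

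Markers of other cell types were summed in the same barcodes. The summed level of 10 endothelial markers was 69.7 CPM in GDSS members and 123 CPM in Yorkshire members, against 60.4 and 103 CPM in the other gated barcodes. A PECAM1 UMI, after thinning, was seen in 5.10% and 5.79% of members, against 70.8% and 90.6% of endothelial barcodes. The endothelial barcodes were themselves chosen by at least 3 UMIs of PECAM1, CDH5, KDR and VWF together, so their PECAM1 share was partly set by that choice. The mural list summed to 61.2 and 82.1 CPM in members and 90.7 and 154 CPM in the others, the satellite cell list to 61.7 and 167 CPM and 52.5 and 142 CPM with MYOG at 0 in members, and the myofibre list to 296 and 514 CPM and 230.5 and 431 CPM. The macrophage list reached 63.0 CPM in GDSS members and 9.24 CPM in Yorkshire members, where PTPRC and MRC1 were at 0, against 40.6 and 9.04 CPM in the others. The lymphocyte list summed to 70.8 and 189 CPM in members and 72.5 and 184 CPM in the other gated barcodes. On it CD79A was detected in 22.8% of GDSS members and 50.7% of Yorkshire members, while CD3E, CD3D, CD2 and MS4A1 were at 0 in both. In members the red cell list summed to 1.19 and 2.17 CPM, with HBM and ALAS2 at 0 in both libraries. The adipocyte list summed to 9.17 and 10.3 CPM in members, with LEP and CIDEC at 0 in both libraries. The glial list of 5 genes reached 33.6 CPM in GDSS members and 94.6 CPM in Yorkshire members, against 39.5 and 75.2 CPM in the other gated barcodes and 28.2 and 35.8 CPM in those past the exclusions. Of the MBP UMIs on this list, 10 members held 83.1% in GDSS and 94.4% in Yorkshire.

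Between the breeds, GDSS members were at least 1.5-fold above Yorkshire members at 619 of 6997 genes (8.85%) and below them at 1079 (15.4%), with a median log2 ratio of -0.12. This split turned with the scaling: with TMM factors (trimmed mean of M-values) it was 1113 higher and 521 lower, and with median-of-ratios factors 1104 higher and 532 lower, shifts of -0.22 and -0.21 on the log2 scale. Scaled to CPM, the other barcodes past the exclusions had 678 of 8641 genes higher in GDSS (7.85%) and 1320 lower (15.3%), so the members' share was near that of their neighbours. Directions below are those in CPM.

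The marker genes differed between the breeds to different degrees. FBLN2 was at 471 CPM in GDSS members and 429.9 CPM in Yorkshire members, a ratio of 1.10 (1.02 to 1.18), and EFEMP1 was at 375 and 386 CPM, a ratio of 0.97 (0.90 to 1.06). On the log2 scale the EFEMP1 ratio was -0.04 in CPM and turned to 0.17 with TMM and with median-of-ratios factors. MFAP5 was at 4591 and 4441 CPM. DKK2 was lower in GDSS members, at 172 and 330.4 CPM, a ratio of 0.52 (0.47 to 0.57), as in the other barcodes past the exclusions, where it was at 90.1 and 157 CPM. PROCR was lower in GDSS members, at 58.8 and 99.5 CPM, but higher in the other GDSS barcodes past the exclusions, at 37.1 and 19.2 CPM. Its log2 member ratio was -0.76 in CPM. With TMM factors it was -0.54 and with median-of-ratios factors -0.55, both within 1.5-fold. In Yorkshire, 10 members held 47.0% of the PROCR member UMIs. DPP4 was at 20.7 and 45.1 CPM, and FBN1 at 248 and 813 CPM, both lower in GDSS members and also in the other GDSS barcodes past the exclusions. CCL26 and PI16, which chose the members, were at 2967 and 298 CPM in GDSS and at 3285 and 383 CPM in Yorkshire.

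Several stress genes and 3 chemokines were higher in GDSS members. On the list of stress and immediate-early genes, 7 of 14 measured passed 1.5-fold upward and none downward, with a median log2 ratio of 0.61, and in the other barcodes past the exclusions 10 of 14 were higher with a median of 0.96. DNAJB1, a co-chaperone, was at 5170 CPM in GDSS members and 1953 CPM in Yorkshire members, and CRYAB, a small heat-shock protein, at 719 and 81.0 CPM. Of 12 measured chemokine and cytokine genes, CCL2, CXCL2 and CXCL8 were higher in GDSS members and IL33 lower. CCL2 was at 2010 and 646 CPM, CXCL2 at 1458 and 482 CPM, and ICAM1 at 187 and 58.2 CPM. CXCL8 was at 52.3 and 1.09 CPM, but 59 GDSS members carried it and 10 of them held 88.8% of its UMIs, against 2 UMIs in all Yorkshire members. The stress list was also higher in the other GDSS barcodes past the exclusions, as were CCL2, CXCL2, CXCL8 and ICAM1. These differences were thus not particular to the members.

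Other genes high in GDSS members varied in how many members carried them. MYOC, the secreted glycoprotein myocilin, was at 324 CPM in GDSS members and 49.5 CPM in Yorkshire members, 6.55-fold higher in GDSS (5.32 to 8.17), and was detected in 34.1% and 9.02% of members. FOLR1, a folate receptor, was at 120 and 10.9 CPM, with 49.2% of the GDSS UMIs in 10 members. FCN2 was at 68.7 and 14.7 CPM, and AVPR1A, a vasopressin receptor, at 46.2 and 9.24 CPM. HAS1, a hyaluronan synthase, was at 581 and 227 CPM, a ratio of 2.56 (2.32 to 2.84), and was also higher in the other GDSS barcodes past the exclusions. CCL14 and the macrophage gene C1QB were at 20.7 and 2.72 CPM and at 20.6 and 2.72 CPM, with 92.0% and 95.4% of their GDSS UMIs in 10 members.

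On the Yorkshire side, FMO1, a flavin monooxygenase, was at 25.5 CPM in GDSS members and 180 CPM in Yorkshire members, 7.06-fold lower in GDSS (5.92 to 8.42), and at 18.5 and 287 CPM in the other barcodes past the exclusions. ITM2A, a membrane protein, was at 7.98 and 83.2 CPM, and ITIH4, a plasma inhibitor chain, at 3.93 and 41.8 CPM. P4HA3, a collagen prolyl hydroxylase, was at 4.41 and 46.2 CPM, and the complement gene C4A at 12.5 and 61.4 CPM. C3, the central complement protein, was at 14.4 and 69.0 CPM. FABP4, a fatty acid carrier of adipocytes and capillaries, was at 12.2 and 123 CPM, with 77.5% of GDSS and 82.8% of Yorkshire UMIs in 10 members. LPL was at 583 and 1023 CPM and was detected in 73.7% and 85.6% of members, so that its difference, unlike that of FABP4, was spread over most of them. ADAMTS5 was at 205 and 497 CPM and CHRDL1 at 45.6 and 98.4 CPM, while ICAM1, F3 and COL15A1 of the preadipocyte list were higher in GDSS members. In the other GDSS barcodes past the exclusions, C3, FABP4, LPL, ADAMTS5 and CHRDL1 were also lower, and ICAM1, F3 and COL15A1 also higher.

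**Figure D5:**
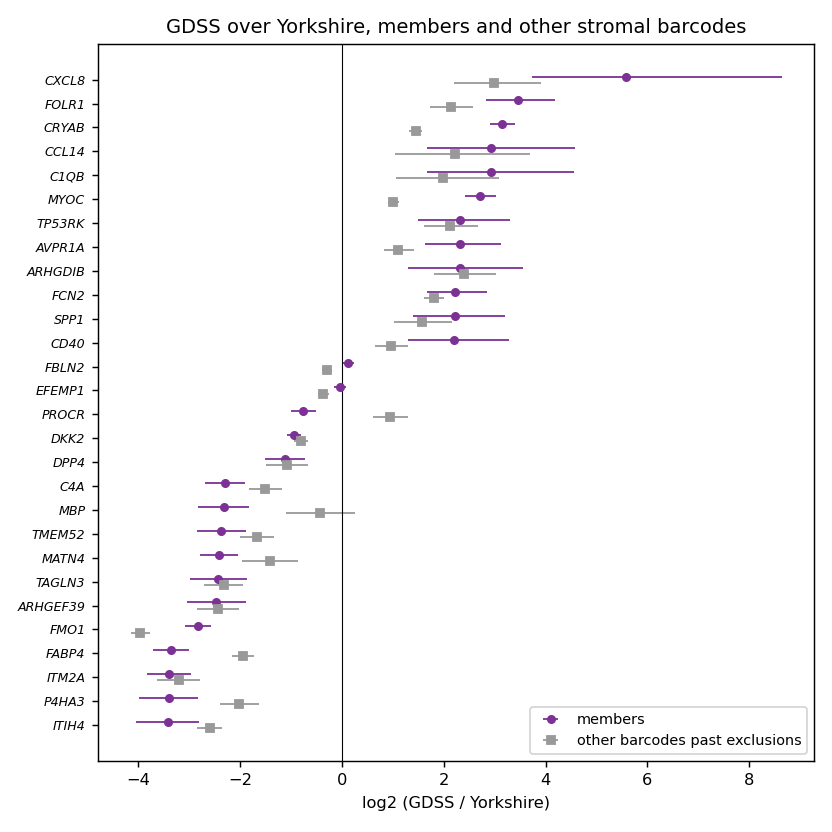
Log2 ratio of GDSS over Yorkshire (x axis) in members (purple) and in the other gated barcodes past the 3 exclusions (grey) for the 12 highest genes, 5 progenitor genes and 11 of the 12 lowest genes by member ratio (y axis), with exact 95% intervals for counting error. The grey points of ranked genes lie on the same side of 0 as the purple ones, except that the interval of MBP spans 0, and PROCR lies on opposite sides.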

How the data were processed

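The authors deposited raw UMI counts per gene and barcode for each library. The submitters' processing notes name Cell Ranger, and also R 3.5.2 without a role. The matrix headers give software version 3.1.0, per the file headers. The genome build was not given in the sources used here. Of 21301 features, 14846 carried a symbol, and 680 more were named from a table of pig Ensembl identifiers.

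Members were found by the rule stated at the opening. Counts were summed over members and over other gated barcodes in each library and expressed as CPM of all UMIs summed. A ratio was formed for genes that reached 100 UMIs in the 2 sums together, and called past 1.5-fold. Intervals are exact 95% Poisson, Clopper-Pearson or conditional binomial intervals, and cover counting error only. No count test was run, since each breed had 1 library and the members were chosen by counts of the same barcodes. The members and gene lists were chosen with earlier results of these data known. Named genes were the markers, the 15 highest and lowest ratios shared by both libraries with at least 20 CPM, the 12 highest and lowest between breeds, and up to 4 genes of each list. Genes with other values printed were picked after those were seen. A small number of genes are not reported here. Of 476 list genes, 434 were matched, and the rest were not used here. Endothelial and satellite barcodes were set by marker genes. Doublets were scored with scrublet and left in, as were barcodes over 10% mitochondrial UMIs. The ratio step was tested on simulated data. Python 3.11.15, scanpy 1.11.5, scipy 1.17.1 and edgeR 4.0.16 (TMM factors only) were used. The alternatives varied the rule's minimum, its genes, the gate, the comparison set, filters, thinning and scaling.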

Additional observations from a re-analysis of the deposited data

Results flagged for a closer look

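Some genes lay past 1.5-fold in opposite directions in the libraries; these differences between the libraries were not tested. Against all other gated barcodes, ALDH1A1, a retinaldehyde dehydrogenase, had a log2 member ratio of -0.65 in GDSS and 0.59 in Yorkshire, and CRYAB had 0.65 in GDSS and -1.35 in Yorkshire. Against the barcodes past the exclusions, ALDH1A2, a related enzyme, had 1.08 in GDSS and -0.9999 in Yorkshire, the second resting on 21 member UMIs. CRYAB had 1.11 and -0.59 there, and P4HA3 had -0.78 and 0.60.

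PI16 and CCL26 were also seen in barcodes that never entered the comparisons. Outside the stromal gate, 91 GDSS barcodes (3.098% of 2937) and 236 Yorkshire barcodes (1.98% of 11898) had at least 3 of their UMIs. Of these, 7 GDSS and 54 Yorkshire barcodes had at least 3 UMIs of satellite cell genes. Of the 236 Yorkshire barcodes, 148 had no DCN, LUM or MFAP5 UMI, 83 had at least 3 UMIs of endothelial genes, and 31 had 12 or more PI16 and CCL26 UMIs, with a median depth of 4550 UMIs and 6 doublet scores of at least 0.3. Of genes picked after their values were seen, ACKR1, an atypical chemokine receptor known from venules, stood at 428 CPM in these barcodes and 35.2 CPM in the other Yorkshire barcodes outside the gate, and at 139 and 17.5 CPM in GDSS. The ACKR1 transcript was detected in 24.6% of the 236 Yorkshire barcodes and 9.89% of the 91 GDSS barcodes. The nerve sheath gene CLDN1 was also higher, at 44.0 and 2.74 CPM in Yorkshire and at 33.8 and 6.31 CPM in GDSS. It was detected in 3.39% of the 236 Yorkshire and 6.59% of the 91 GDSS barcodes. The keratin gene KRT8 was at 56.4 and 4.27 CPM in Yorkshire and had no UMI in GDSS. The satellite cell gene PAX7 was lower in both libraries. Whether these barcodes transcribe CCL26 or hold free or doublet RNA was not tested.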

How the results depend on the processing

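Member shares are given for GDSS, then Yorkshire. They were 30.03% and 19.8% with a minimum of 2 UMIs, 18.1% and 13.6% with 5, 22.1% and 14.7% with CCL26 alone, 4.13% and 3.43% with PI16 alone, and 22.4% and 14.8% with at least 10 per 10000 UMIs. They were 26.4% and 20.4% with a gate of 100 per 10000, and 29.6% and 25.7% of barcodes past the exclusions. GDSS was the higher in all of these.

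Counts of genes higher and lower in members, which change with how many genes and UMIs enter, were 774 and 989 in GDSS and 1108 and 913 in Yorkshire with PI16 alone, where the breed counts were 240 and 361. Thinning to 1500 UMIs gave 159 and 271 in GDSS, 206 and 277 in Yorkshire, and 514 lower between breeds. Against barcodes past the exclusions 250 were lower in GDSS, and 219 higher and 227 lower in Yorkshire, and a gate of 100 left 261 higher in Yorkshire. With at least 20 UMIs per gene the counts were 520 and 1142, 949 and 1411, and 1190 and 2189 between breeds. With at least 500 UMIs they were 96 and 116, 113 and 119, and 221 and 200. TMM factors gave 1113 and 521 between breeds, and median-of-ratios factors 1104 and 532.

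Some log2 values turned sign, and the cause was not tested. SFRP4 in GDSS became 1.05 with PI16 alone and 0.97 against barcodes past the exclusions, where FAM180B became 0.65 in GDSS and CPZ 0.33 in GDSS and 0.66 in Yorkshire. The Yorkshire median of the Wnt list became 0.40 after thinning and 0.22 past the exclusions. Of 1762 values of 128 called gene results, 1757 kept their sign and 1729 stayed past 1.5-fold. Settings that changed only the minimum UMIs per gene were counted among these values. Such settings leave the log2 value of a gene unchanged, so agreement there was fixed in advance. The counts of 1757 and 1729 therefore overstate how stable the results were. No paired analysis of members against other barcodes within libraries was run. Because the members were chosen by counts of the same barcodes, it would have been no test. With 1 library per breed no test between breeds was possible, so no result comes from a test.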
